A study of Homo sapiens with 8 samples.

Results

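CPM, ALPK2, C4orf48 and KRTAP2-3 are 4 of the 19952 gene symbols for which RNA levels were deposited from uveal melanoma cells in which the cytidine deaminase APOBEC3B (A3B) was depleted or overexpressed. They were chosen by their change in MEL290 cells on A3B overexpression, as the rise that followed MGMT and the 3 leading falls, so everything given below on these 4 genes in MEL290 is a description with no test, and their level in 92.1 cells is the measurement that the choice did not use. RNA was sequenced from 8 libraries, 2 in each of 4 groups. The 92.1 cells, a uveal melanoma line, were a control labelled shCtrl or carried a hairpin against A3B (shA3B). MEL290 cells, labelled as uveal melanoma cells, were a negative control (NC) or had A3B overexpression (A3B OE). For the RNA sequencing of 92.1, the study's methods name the control as an empty vector. The hairpins came from a pGIPZ vector and the full-length A3B from a pHAGE vector, and which of the study's hairpins the shA3B libraries carry is not given in the sources used here. Nothing in the labels says whether the 2 libraries of a group came from separate cultures, so p-values measure only the spread between these libraries.

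The 4 genes belong to unrelated families. CPM encodes carboxypeptidase M, a membrane-anchored enzyme of the M14 metallocarboxypeptidase family that trims a basic residue from the end of peptides such as kinins and epidermal growth factor at the cell surface. ALPK2 encodes alpha-protein kinase 2, an atypical kinase studied mainly in heart development. C4orf48, named NICOL1 in RefSeq, encodes a small secreted protein that acts together with NELL2 as a ligand, best known from the epididymis. KRTAP2-3 encodes a keratin-associated protein, part of the matrix in which hair keratin filaments are embedded in the hair shaft.

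Levels are given as FPKM (fragments per kilobase of transcript, scaled to the mapped fragments of each library), which the authors calculated with Cufflinks, and differences as log2 changes of FPKM + 1. The depth of the libraries is not stated. APOBEC3B itself was at 35.9 and 32.3 FPKM in the shCtrl libraries and 1.98 and 2.37 in the shA3B libraries, a log2 change of -3.47 ± 0.15 (SE; limma, adjusted p = 2.4e-06; 0.34 without the filter on low values), and at 2.67 and 2.19 in NC and 28.4 and 27.5 in A3B OE, a log2 change of 3.08 ± 0.12 (limma, adjusted p = 0.00078). The labelled cell type was checked against melanocyte genes. All 11 melanocyte markers passed the filter on low values in 92.1, with a summed level of 7325 to 8957 FPKM over its 4 libraries. In MEL290, 3 of the 11 passed (PMEL, MITF and GPR143) and the sum was 32.9 to 39.4 FPKM, with TYR listed at 0 in all 4 libraries and MLANA, SOX10 and PAX3 at 0.168 FPKM or less. The epithelial keratins KRT8 and KRT18 were at 770 to 1298 FPKM in MEL290 and at 4.09 FPKM or less in 92.1. Other epithelial markers were low in MEL290 NC: EPCAM and KRT5 were listed at 0 and CDH1 was at 0.180 and 0.393 FPKM. KRT19 was at 0.918 and 0.130 FPKM there, and CLDN4 at 5.13 and 4.29. The 11 mesenchymal markers listed summed to 135 to 149 FPKM in MEL290 and to 7.54 to 9.29 in 92.1. Of these, COL1A1, PDGFRB, FAP and TAGLN passed the filter in MEL290. The cell type of MEL290 was not settled by these lists.

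The 4 genes also lie apart in the genome and start from different kinds of sequence. In GRCh38, with the gene models of GENCODE release 44, CPM spans chr12:68842197-68971570 on the minus strand with 9 exons, ALPK2 spans chr18:58481247-58629091 on the minus strand with 13 exons, C4orf48 spans chr4:2041995-2043964 on the plus strand with 4 exons, and KRTAP2-3 is a single exon at chr17:41059240-41060114 on the minus strand. The 100 bases before the RefSeq start of each gene (GRCh38.p14) are shown because they differ in CpG content, and KRTAP2-4, the neighbour and close relative of KRTAP2-3, is added for comparison. CpG dinucleotides are in capitals and each sequence is written in the direction of transcription.
CPM, chr12:68933200-68933299, minus strand: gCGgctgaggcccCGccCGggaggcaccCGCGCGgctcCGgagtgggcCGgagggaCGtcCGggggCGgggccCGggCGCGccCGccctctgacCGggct
C4orf48, chr4:2041895-2041994, plus strand: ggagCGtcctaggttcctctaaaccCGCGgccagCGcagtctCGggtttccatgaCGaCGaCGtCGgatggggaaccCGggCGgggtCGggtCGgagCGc
ALPK2, chr18:58629092-58629191, minus strand: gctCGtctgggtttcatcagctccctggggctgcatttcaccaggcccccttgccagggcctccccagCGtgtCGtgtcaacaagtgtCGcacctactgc
KRTAP2-3, chr17:41060115-41060214, minus strand: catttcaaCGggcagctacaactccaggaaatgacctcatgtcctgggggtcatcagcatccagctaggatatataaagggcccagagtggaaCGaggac
KRTAP2-4, chr17:41065880-41065979, minus strand: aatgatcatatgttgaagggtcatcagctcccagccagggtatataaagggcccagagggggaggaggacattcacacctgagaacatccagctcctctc

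The shown CPM start is the first of 3 that RefSeq lists, and lies inside the GENCODE gene. The second held 46 CpG in 300 bases, but the third held 7, as few as ALPK2. Over the 300 bases around the start, the shown start of CPM held 44 CpG, more than 95.8% of the 35116 RefSeq promoters, and C4orf48 held 37, more than 88.7%, whereas ALPK2 held 7 and KRTAP2-3 held 4, against a median of 14. The letters TATAAA were found, among the 4 genes, before the start of KRTAP2-3, at 28 bases, and also before KRTAP2-4, at 58 bases. That motif, searched on both strands, is present in 11.5% of all promoters of this length. The 100 bases shown for C4orf48 hold the whole interval to NELFA, which is transcribed in the opposite direction from a start 92 bases away, so the sequence is shared by 2 genes whose levels are compared below.

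CPM was low in MEL290 NC and higher in every other group, with libraries of one group far apart. It was at 0.715 and 1.22 FPKM in NC and at 8.25 and 32.4 in A3B OE, so both A3B OE libraries were above both NC libraries. The mean went from 0.965 ± 0.354 to 20.3 ± 17.1 FPKM (SD, n = 2), a ratio of 21.0 and a log2 change of 3.17. That change was 4.10 without A3B OE replicate 1, 2.25 without A3B OE replicate 2 and 3.99 with a pseudocount of 0.1. In 92.1 CPM was at 18.2 and 4.36 FPKM with shCtrl and at 30.2 and 6.02 with shA3B. The group means ran from NC through shCtrl (11.3 ± 9.76) and shA3B (18.1 ± 17.1) to A3B OE, and the last 3 groups overlapped one another. By its place among all symbols in a library, CPM ranged from the 2577th highest in A3B OE replicate 2 to the 11731st in NC replicate 1.

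In 92.1, where the gene was not picked, CPM did not pass the test. Its log2 change on A3B depletion was 0.55 ± 0.63 (SE; limma, adjusted p = 1.00), and the groups overlapped. The sign rested on single libraries: the change was -0.53 without shA3B replicate 1 and -0.37 without shCtrl replicate 2, but 1.62 without shA3B replicate 2 and 1.47 without shCtrl replicate 1. With this spread a change of either sign could not be told from none.

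**Figure D1:**
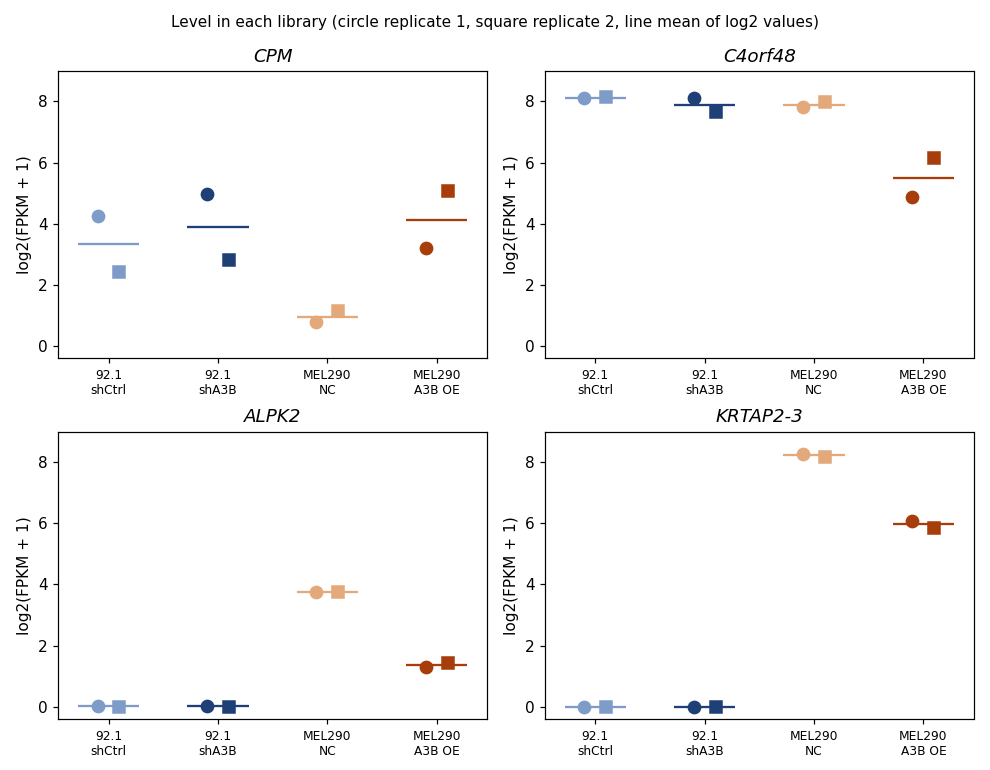
Level of each of the 4 genes in each library, as log2(FPKM + 1), by group (circle replicate 1, square replicate 2, line the mean of the log2 values). CPM libraries of one group lay up to 5.02-fold apart, ALPK2 and KRTAP2-3 were at or near 0 in 92.1, and C4orf48 was high in 3 groups and lower in A3B OE.

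The distance between libraries of one group was itself a feature of CPM. The higher library exceeded the lower 4.16-fold in shCtrl, 5.02-fold in shA3B, 3.93-fold in A3B OE and 1.70-fold in NC. Over all genes tested in a line, the median absolute difference between the 2 libraries was 0.17 on the log2 scale in shCtrl, 0.15 in shA3B, 0.11 in NC and 0.13 in A3B OE. Only 17 of 11605 genes in shCtrl, 7 of 11605 in shA3B and 16 of 11611 in A3B OE, CPM counted in each, were as far apart as CPM, while 1201 of 11611 were in NC. In both 92.1 groups replicate 1 was the higher library, and in A3B OE it was replicate 2.

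The genes as far apart as CPM were in part shared between groups. Of the 17 in shCtrl and the 7 in shA3B, 5 were in both, which is CPM and 4 others, and 3 of these had the same library higher: CPM, GDF1 and the unnamed gene AC012254.2. Of the 16 in A3B OE, 3 were also in shCtrl, namely CPM, FRMD4A and TMEM135, the last 2 singled out after their values were seen. FRMD4A was at 22.9 and 3.31 FPKM in shCtrl, 3.95 and 3.30 in shA3B, 207 and 173 in NC and 682 and 10.8 in A3B OE. TMEM135 was at 68.3 and 10.9 in shCtrl, 18.2 and 21.9 in shA3B, 107 and 214 in NC and 8.13 and 58.8 in A3B OE. CPM therefore stood in a small set of genes whose deposited level moved several-fold between libraries of one group, and the cause was not tested.

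CPM and MDM2, the ubiquitin ligase that restrains p53, are transcribed towards each other and overlap by 3348 bases at their ends, 133 of them exonic in both. Whether the counting used strand is not given in the sources used here, so reads from the overlap cannot be assigned with certainty. Between NC and A3B OE the 2 genes did not move together: MDM2 was at 68.1 and 64.5 FPKM in NC and 42.6 and 48.2 in A3B OE and fell, with a log2 change of -0.54 ± 0.09 (limma, adjusted p = 0.013). That call was lost when all 8 libraries were fitted together (limma, adjusted p = 0.11) and without the filter on low values (limma, adjusted p = 0.057). Within A3B OE both genes were higher in replicate 2, whereas in NC MDM2 was higher in replicate 1 and CPM in replicate 2. In 92.1 MDM2 was at 25.2 and 16.3 FPKM with shCtrl and 23.7 and 18.4 with shA3B, with the higher library again replicate 1 in each group, a log2 change of 0.041 (limma, adjusted p = 1.00). NUP107, a nuclear pore subunit, was the only other of the 11 genes tested near CPM in MEL290 that was called, and rose from 26.2 and 24.5 to 36.8 and 37.5 FPKM (log2 change 0.53, limma, adjusted p = 0.011), a call lost without A3B OE replicate 1 or replicate 2 (limma, adjusted p = 0.051 and 0.059).

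No other M14 carboxypeptidase was called higher in MEL290. Of 23 listed, 6 passed the filter and 3 were called, all of them lower, where 17.8% of the 11611 genes tested were called in either direction, 10.3% higher and 7.49% lower. CPE, the prohormone-processing carboxypeptidase E, fell from 19.2 and 24.3 to 13.5 and 10.3 FPKM, a log2 change of -0.81 ± 0.17 (limma, adjusted p = 0.024). CPA4 fell from 115 and 107 to 67.8 and 69.6 FPKM (log2 change -0.68, limma, adjusted p = 0.0037), and AGBL5, which removes glutamates from tubulin, fell by 0.34 on the log2 scale (limma, adjusted p = 0.046). The call of CPE was lost without A3B OE replicate 2 (limma, adjusted p = 0.11), and that of AGBL5 without any 1 of the 4 libraries (limma, adjusted p = 0.11 to 0.16). Without the filter on low values CPE and AGBL5 were not called (limma, adjusted p = 0.11 and 0.062), nor was AGBL5 without the trend (limma, adjusted p = 0.067). The other 3 tested were not called. AGBL2, a relative of AGBL5, was at 0.966 and 1.19 FPKM in NC and 4.64 and 1.96 in A3B OE, a log2 change of 0.98 ± 0.30 (limma, adjusted p = 0.077). It was called higher when all 8 libraries were fitted together (limma, adjusted p = 0.040), and without NC replicate 1, NC replicate 2 or A3B OE replicate 2 (limma, adjusted p = 0.033, 0.014 and 0.033). CPD, the Golgi carboxypeptidase, was at 23.8 and 23.6 FPKM in NC and 26.6 and 28.7 in A3B OE (limma, adjusted p = 0.16), and AGTPBP1 had a log2 change of 0.033, whose sign depended on the setting. In 92.1, 8 of the 23 were tested and none was called by limma, where 0.00862% of 11605 genes tested, which is APOBEC3B alone, was called and 336 had an unadjusted p under 0.05.

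Genes for substrates of CPM and for enzymes and receptors that share them were described from a list of 15. In MEL290 9 were tested, 3 were called higher and 1 lower, beside the 10.3% and 7.49% of all genes called in those directions. RARRES2, the precursor of the chemokine-like ligand chemerin, rose from 770 and 799 to 1181 and 1049 FPKM (log2 change 0.50 ± 0.08, limma, adjusted p = 0.010). MME, the cell-surface peptidase neprilysin, rose from 28.9 and 29.0 to 46.2 and 44.9 FPKM (log2 change 0.64, limma, adjusted p = 0.0056). EGF rose from 0.235 and 0.375 to 1.85 and 1.08 FPKM (log2 change 0.90, limma, adjusted p = 0.031), while its receptor EGFR had a log2 change of 0.02. EGF passed the filter only through the A3B OE libraries, so its place among the 3 called higher depended on the group where it was high. BDKRB1, the kinin receptor whose ligands are made by removal of a terminal arginine, fell by 0.40 on the log2 scale (limma, adjusted p = 0.039) and was listed at 0 in 92.1. The call of EGF was lost without A3B OE replicate 1 (limma, adjusted p = 0.11), and that of BDKRB1 without NC replicate 1 or either A3B OE library (limma, adjusted p = 0.069 to 0.14). When all 8 libraries were fitted together MME and BDKRB1 were not called (limma, adjusted p = 0.066 and 0.061), and without the filter on low values RARRES2, EGF and BDKRB1 were not (limma, adjusted p = 0.060, 0.088 and 0.095). EGF was also not called with quantile normalization (limma, adjusted p = 0.053), nor BDKRB1 without the trend (limma, adjusted p = 0.073). None of the 3 tested in 92.1 was called.

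C4orf48 was an abundant transcript in 3 of the 4 groups and lower in A3B OE. It was at 272 and 280 FPKM in shCtrl, 275 and 199 in shA3B and 225 and 250 in NC, and at 28.5 and 69.2 in A3B OE. Both A3B OE libraries were below the other 6. The mean in MEL290 went from 237 ± 18.0 to 48.8 ± 28.8 FPKM (SD, n = 2), 4.86-fold lower, with a log2 change of -2.39. The A3B OE libraries lay 2.43-fold apart, a gap that 35 of 11611 genes reached or passed, so the change was -3.01 without replicate 2 of A3B OE and -1.76 without replicate 1. In order of the means, shCtrl (276 ± 5.25) came before NC and shA3B (237 ± 54.3), and both NC libraries lay between the shA3B libraries and below the shCtrl libraries.

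In 92.1, where the test did not depend on the choice of the gene, C4orf48 was not called. Its log2 change was -0.24 ± 0.16 (SE; limma, adjusted p = 1.00) and the groups overlapped, since shA3B replicate 1 lay between the shCtrl libraries and replicate 2 below both. Without shA3B replicate 2 the change was -0.003. Of the 4 genes, 2 could be tested in 92.1 and neither was called, beside the 0.00862% of all genes tested.

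C4orf48 is short and rich in G and C. Its longest transcript has 477 bases, and its GC content of 73.2% exceeds that of 99.9% of the genes matched to the annotation. The difference between the 2 libraries of a group followed GC content across genes, with r of 0.47 in shCtrl, -0.22 in shA3B, 0.04 in NC and -0.28 in A3B OE over 11356 to 11359 genes, which are not independent replicates. In A3B OE the 349 genes of at least 65% GC were lower in replicate 2 by a median of 0.12 on the log2 scale, and C4orf48 was higher there by 1.25. With the trend on GC and length removed, its change was -2.20 in MEL290 and -0.07 in 92.1. The part of GC content in the level of C4orf48 was not tested.

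Its nearest neighbour did not move with it. NELFA, a subunit of the negative elongation factor that pauses RNA polymerase II, starts 92 bases from C4orf48 and was at 10.4 and 11.1 FPKM in NC and 13.2 and 12.8 in A3B OE, a log2 change of 0.25 ± 0.10 that was not called (limma, adjusted p = 0.15). NAT8L, which makes N-acetylaspartate and starts 17332 bases downstream, fell from 8.05 and 7.54 to 5.52 and 4.77 FPKM (log2 change -0.52, limma, adjusted p = 0.042). MXD4, a MYC antagonist, fell from 32.6 and 36.9 to 19.9 and 18.6 FPKM (log2 change -0.82, limma, adjusted p = 0.0057). NSD2 (a histone H3 lysine methyltransferase) and TACC3 (a spindle protein) rose, with log2 changes of 0.41 and 0.66, and FGFR3 and GRK4, both under 4 FPKM, fell (limma, adjusted p = 0.049 and 0.041). The calls of NAT8L and FGFR3 were lost without any 1 of the 4 libraries, and those of NSD2 and GRK4 without NC replicate 2 or either A3B OE library (limma, adjusted p = 0.053 to 0.17 over the 4 genes). Without the filter on low values these 4 calls were lost too (limma, adjusted p = 0.076 to 0.12), without the trend that of NSD2 (limma, adjusted p = 0.063), and that of MXD4 when all 8 libraries were fitted together (limma, adjusted p = 0.060). FGFR3 was also not called with upper quartile scaling, a pseudocount of 0.1 or the GC and length trend removed (limma, adjusted p = 0.050 to 0.057). In all, 6 of 24 neighbours tested were called, 2 higher and 4 lower, beside the 17.8% called over all genes (10.3% higher and 7.49% lower), with a median change of -0.05 against 0.004 over all genes.

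The genes of the NELL2 pathway were scarce in MEL290. None of the 4 listed passed the filter there: NELL2 was listed at 0.169 FPKM in 1 library and at 0 in 3, OVCH2 at 0 in all, NELL1 at 0 in all, and the receptor ROS1 at 0.376 to 0.845 FPKM. In 92.1 NELL2 was at 3.23 and 2.67 FPKM with shCtrl and 3.59 and 1.99 with shA3B and was not called.

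ALPK2 was detected in MEL290 and was at or near 0 in 92.1. It was at 12.4 and 12.6 FPKM in NC and at 1.47 and 1.70 in A3B OE, with no overlap and with libraries of a group no more than 1.16-fold apart. The mean went from 12.5 ± 0.184 to 1.59 ± 0.167 FPKM (SD, n = 2), 7.88-fold lower, a log2 change of -2.39. A pseudocount of 0.1 in place of 1 gave -2.91, since the A3B OE values are close to the pseudocount. In 92.1 it was at 0.0182 and 0 FPKM with shCtrl and at 0.0178 and 0.00423 with shA3B, below the filter, so no change could be tested there.

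No other alpha kinase was called. ALPK1, a cytosolic sensor of bacterial sugars, was at 3.88 and 4.73 FPKM in NC and 4.80 and 5.67 in A3B OE (log2 change 0.23, limma, adjusted p = 0.33). EEF2K, the kinase of elongation factor 2, and TRPM7, an ion channel with a kinase domain, had log2 changes of 0.13 and 0.11 (limma, adjusted p = 0.56 and 0.65). ALPK3, an alpha kinase of heart muscle, was at 0.147 FPKM or less in MEL290 and untested, and none of the 3 tested in 92.1 was called.

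Around ALPK2, 4 of 9 genes tested in MEL290 were called, 2 higher and 2 lower, where 17.8% of all genes were called. CCBE1, a secreted protein of lymphatic development, rose from 18.9 and 17.6 to 35.4 and 33.9 FPKM (log2 change 0.89, limma, adjusted p = 0.0035), and ATP8B1, a lipid flippase, rose by 0.61 on the log2 scale (limma, adjusted p = 0.013). SEC11C, a subunit of the signal peptidase, fell from 49.2 and 44.9 to 26.9 and 23.2 FPKM (log2 change -0.89, limma, adjusted p = 0.0050), and FECH, the last enzyme of heme synthesis, fell by 0.42 (limma, adjusted p = 0.037). The call of ATP8B1 was lost without either A3B OE library (limma, adjusted p = 0.051 and 0.073), and that of FECH without those or NC replicate 2 (limma, adjusted p = 0.11 to 0.16), without the trend (0.060) or without the filter on low values (0.086). MALT1, a protease of lymphocyte signalling whose start was the nearest to ALPK2 among the genes tested, was at 21.7 and 20.0 FPKM in NC and 24.5 and 26.5 in A3B OE and was not called.

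Over the 4 loci, 147 symbols had a start coordinate (the lower end of the gene on the chromosome) within 1 Mb of that of one of the 4 genes. In MEL290 75 were tested and 18 were called, 6 higher and 12 lower, beside the 17.8% called over all genes, with a median change of 0.02. The 12 include KRT16, the next fall in the ranking that chose the genes. They also include KRT14 and KRTAP2-4, which passed the filter only through the NC libraries. In 92.1 65 were tested and limma called none, with changes from -0.30 to 0.61. By the start of transcription some of the 147 lie farther than 1 Mb away. Among them are CCBE1 and FECH, at -1068571 and 1042359 bases from ALPK2.

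KRTAP2-3 was among the abundant transcripts of MEL290 NC and was listed at 0 in all 4 libraries of 92.1. It was at 309 and 286 FPKM in NC, ranking 236th and 253rd of all symbols, and at 66.8 and 56.7 in A3B OE, ranking 1268th and 1445th. The groups did not overlap, and the mean went from 297 ± 16.2 to 61.7 ± 7.13 FPKM (SD, n = 2), 4.81-fold lower, a log2 change of -2.25. In 92.1 no test was possible.

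Its value is uncertain because KRTAP2-3 shares sequence with other KRTAP2 genes. Of the stretches of 150 bases in its 875-base transcript, 29.5% also occur in KRTAP2-4, 21.1% in KRTAP2-1 and 20.0% in KRTAP2-2, so reads from those stretches can be split among them, while the rest of the transcript differs. KRTAP2-4, which starts 5765 bases away, was at 1.52 and 1.60 FPKM in NC and 0.309 and 0.422 in A3B OE and fell by 0.91 on the log2 scale (limma, adjusted p = 0.013), a call lost without either A3B OE library (limma, adjusted p = 0.065 and 0.055). KRTAP2-4 passed the filter only through the NC libraries, so its call depended on the group where it was high. Of the stretches of 150 bases in KRTAP2-4, 34.8% also occur in KRTAP2-3. How far the KRTAP2-4 level holds reads of KRTAP2-3 was not tested, so its fall cannot be counted as separate. KRTAP2-4 was the only other keratin-associated gene called of the 2 tested among 93 listed, since 83 of them were listed at 0 in all MEL290 libraries. KRTAP1-5 was at 1.00 and 1.30 FPKM in NC and 1.14 and 1.21 in A3B OE.

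Of the keratin genes near KRTAP2-3, some fell and others were not called. KRT34, a hair keratin, fell from 111 and 99.4 to 33.0 and 28.9 FPKM (log2 change -1.73 ± 0.10, limma, adjusted p = 0.0011). KRT31, another hair keratin, fell from 6.44 and 5.54 to 2.78 and 2.15 FPKM (log2 change -1.02, limma, adjusted p = 0.011). KRT14, a keratin of basal epidermis, fell from 1.98 and 2.36 to 0.412 and 0.545 FPKM (log2 change -1.10, limma, adjusted p = 0.0091). KRT14 passed the filter only through the NC libraries, so its call depended on the group where it was high. KRT16, a keratin induced in wounded or stressed epidermis, is the fall that followed the 3 chosen ones and is described without a test: it was at 29.3 and 27.7 FPKM in NC and 6.03 and 6.01 in A3B OE, a log2 change of -2.07. In the same cluster KRT33B was at 87.9 and 92.8 FPKM in NC and 110 and 90.1 in A3B OE, and KRT13 at 25.9 and 31.3 in NC and 31.7 and 33.3 in A3B OE, and neither was called (limma, adjusted p = 0.41 and 0.30). Of the 31 genes tested around KRTAP2-3, 6 were called, 5 lower and 1 higher, where 17.8% of all genes tested were called and 7.49% were called lower. The higher 1 was TOP2A, the topoisomerase of dividing cells, at 22.3 and 21.3 FPKM in NC and 46.5 and 52.1 in A3B OE (log2 change 1.14, limma, adjusted p = 0.0024). Without A3B OE replicate 1 the call of KRT14 was lost (limma, adjusted p = 0.052), and without A3B OE replicate 2 that of KRT31 (limma, adjusted p = 0.063), which was also lost without the filter on low values (limma, adjusted p = 0.058).

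**Figure D2:**
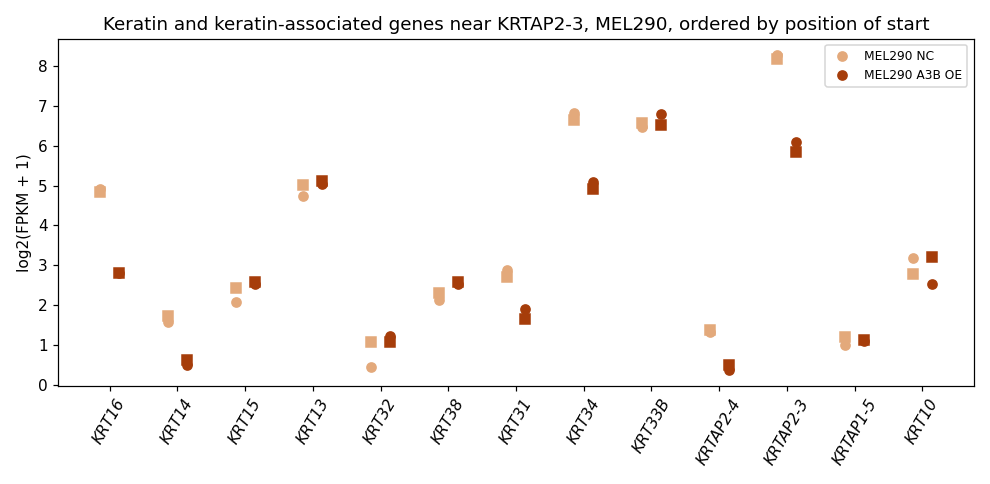
Level of the keratin and keratin-associated genes within 1 Mb of KRTAP2-3 that passed the filter in MEL290, as log2(FPKM + 1), in order of the position of their start (circles replicate 1, squares replicate 2, light NC, dark A3B OE). KRT16, KRT14, KRT31, KRT34, KRTAP2-4 and KRTAP2-3 were lower in both A3B OE libraries, whereas KRT13 and KRT33B were at like levels or higher. KRTAP2-4 shares sequence with KRTAP2-3, so their levels may not be separate.

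Of the 17 hair keratins listed, 6 were tested in MEL290 and 2 were called, both lower (KRT34 and KRT31), beside the 7.49% of all genes called lower, and all 16 that the files list were at 0 in 92.1. KRT81, a hair keratin of the type II family, was at 26.1 and 27.9 FPKM in NC and 22.0 and 19.7 in A3B OE (limma, adjusted p = 0.055). KRT38, KRT32 and KRT33B had positive log2 changes of 0.35, 0.39 and 0.14 and were not called (limma, adjusted p = 0.14, 0.31 and 0.41). The tested hair keratins therefore did not move together. Of 7 epithelial markers listed, 3 were tested and all 3 were called lower, beside the same 7.49%, KRT8 with a log2 change of -0.40, KRT18 of -0.66 and CLDN4 of -0.80 (limma, adjusted p = 0.023, 0.0041 and 0.032). The call of CLDN4 was lost without either A3B OE library (limma, adjusted p = 0.054 and 0.13) and that of KRT8 without NC replicate 1 (0.051), and both without the filter on low values (limma, adjusted p = 0.11 and 0.098). KRT8 was also not called without the trend (limma, adjusted p = 0.073). Among the untested markers CDH1 was at 0.180 and 0.393 FPKM in NC and 0.301 and 2.14 in A3B OE, EPCAM was listed at 0 in NC and at 0.0575 and 0.0704 in A3B OE, KRT5 was listed at 0 throughout and KRT19 was below 1 FPKM. The sum over the list was 2553 to 2586 FPKM in NC and 1681 to 1900 in A3B OE. Their part in the level of KRTAP2-3 was not tested, and fewer cells of a type cannot be told apart from less RNA per cell in such bulk samples.

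**Figure D3:**
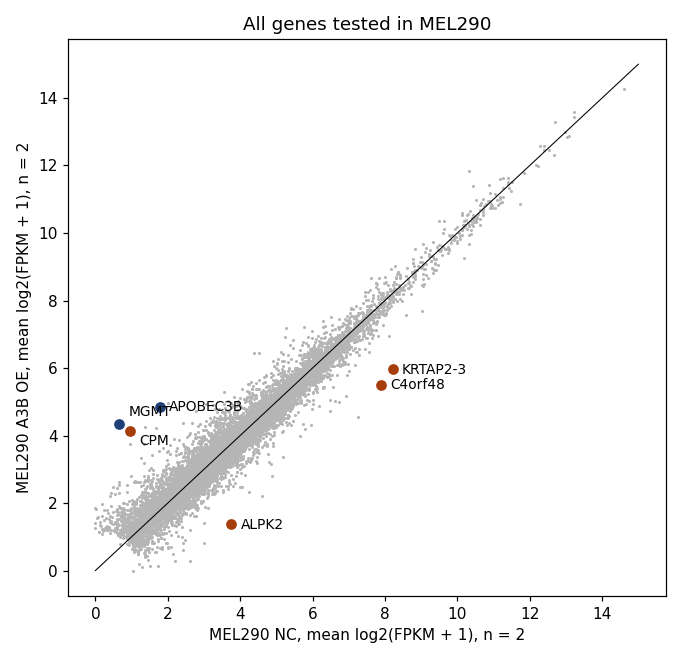
Mean log2(FPKM + 1) of each gene tested in MEL290 in the 2 NC libraries (x axis) and the 2 A3B OE libraries (y axis), with the line of equal level. CPM lay near MGMT and APOBEC3B above the line, and ALPK2, C4orf48 and KRTAP2-3 below it.

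The values on which the 4 genes were selected form a short scale. Among 1747 genes of MEL290 that were called, did not overlap between the groups and had a mean of at least 4 FPKM, the rises ran from MGMT (log2 change 3.68) through CPM (3.17) and APOBEC3B (3.08) to IL7R (2.54) and GSTM2 (2.42) outside. The falls ran from C4orf48 and ALPK2 (both -2.39) and KRTAP2-3 (-2.25) to KRT16 (-2.07), ADGRG1 (-1.92) and NRG1 (-1.83) just outside. All 4 genes were called, as the selection required, so nothing is read from that count beside the 17.8% of all genes.

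Genes with the most similar levels over the 8 libraries were found by Pearson's r of log2(FPKM + 1) among 12696 genes, as a description in which the points share the difference between the cell lines. For CPM they were ETV1 (r = 0.96), FANCI (0.95) and MTMR10 (0.93). FANCI, a DNA repair protein, was at 12.6 and 13.0 FPKM in NC and 25.2 and 32.9 in A3B OE, and in every group it was higher in the library in which CPM was higher. For C4orf48 they were SUGCT (0.98), LYSMD2 (0.97) and ZNF18 (0.96), and SUGCT was at 7.22 and 8.11 FPKM in NC and 3.27 and 4.35 in A3B OE. For ALPK2 they were KRTAP2-4, MAOB and ZNF804A, and for KRTAP2-3 they were KRT34, NRXN3 and TMEM151A, each with r rounding to 1.00 and each at less than 1 FPKM in 92.1.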

How the data were processed

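The deposited values are FPKM by gene symbol, in a file for each library. By the study's methods, the authors used STAR for alignment to GRCh38, and Cufflinks then gave the FPKM. Versions are not given in the sources used here. The authors' Cuffdiff test starts from reads and was not run. Depth is unknown, so no counting error is given, and a value of exactly 0 can be a failed estimate and is described as listed at 0.

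Values were transformed as log2(FPKM + 1). A gene entered the test of a cell line when 2 or more of that line's 4 libraries reached 1 FPKM. The 2 lines had separate limma fits (limma 3.58.1 under R 4.3.3, moderated by eBayes with its trend option), with Benjamini-Hochberg adjustment over all genes tested and a threshold of 0.05. An exact permutation test of 2 libraries against 2 cannot go below p = 0.33. The fit was tested on simulated data. Of the symbols, 19033 matched GENCODE release 44 by name, and promoters were taken from RefSeq by symbol, C4orf48 through its synonym.

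The 4 genes, the family, marker and neighbour lists were chosen with earlier results of these data known. Named genes were the 4 genes, APOBEC3B, the 3 next rises and falls, called or nearest neighbours, called family genes and the 3 genes most like each. A gene under this rule is not reported here. Other normalizations, filters, pseudocounts, fits and left-out libraries were tried.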

Additional observations from a re-analysis of the deposited data

How the results depend on the processing

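With 2 libraries a group, single libraries weighed heavily. Leaving out 1 library gave 774 to 1944 calls in MEL290 in place of 2065 (774 without A3B OE replicate 2, 902 without A3B OE replicate 1) and 2 to 7 in 92.1 in place of 1. Neighbours called in MEL290 numbered 10 to 18 in place of 18 (10 without either A3B OE library), and family genes 6 to 11 in place of 10. In such a fit the lone library is assumed to vary like the other group. The change of CPM in 92.1 ran from -0.53 to 1.62, with -0.53 without shA3B replicate 1 and -0.37 without shCtrl replicate 2. With every gene above 0 in any of the 4 libraries tested, 915 genes were called in MEL290, 0 in 92.1, 11 neighbours and 4 family genes. Without the trend, 2 genes were called in 92.1. A pseudocount of 0.1 gave -2.91 for ALPK2 in MEL290.

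The replicate numbers do not pair the libraries by any label (correlation of deviations 0.19 in 92.1 and -0.03 in MEL290, 2 pairs each). With the replicate block 37 genes were called in 92.1 and 1521 in MEL290, and CPM in 92.1 had a log2 change of 0.55 with adjusted p = 0.19 (limma). In MEL290 the block also lost the calls of FECH, EGF, NAT8L, GRK4, FGFR3 and AGBL5 (limma, adjusted p = 0.053 to 0.076).

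Among the other genes described, the sign changed only where no change was called: MDM2 in 92.1 (-0.052 with the GC and length trend removed, -0.26 to 0.34 with 1 library left out) and, in MEL290, KRTAP1-5 (-0.088 with quantile normalization, -0.078 to 0.12 with 1 library left out), KRT33B (-0.0034 to 0.29), EGFR (-0.016 to 0.065) and TRPM7 (-0.058 to 0.27), each of the last 3 with 1 library left out, and AGTPBP1 (-0.021 with quantile normalization, -0.018 with the GC and length trend removed, -0.031 to 0.097 with 1 library left out). Over the settings other than left-out libraries, 35 of 426 values for those genes lost their call. The 426 include genes not called in the main fit, which had no call to lose, so the share among called genes is higher. The filter of at least 1 FPKM in all 4 libraries left CPM without a value in MEL290. Among the other genes it left out there were EGF, KRT14, KRTAP2-4, GRK4 and AGBL2. Values missing in this way are not counted in the 426. The cause of these shifts was not tested.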
